A study of Mus musculus with 39 samples.

Results

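Gdf15, Fgf21 and Inhbe encode hormones that the liver secretes under cellular stress, and their rows were read by gene symbol from the deposited count table: 3 genes of 11873. All 3 were present and all 3 passed the filter on low counts. The livers came from C57BL/6 mice aged 3 to 5 months. Control mice carried only Alb-Cre (Alb), in which the albumin promoter drives Cre recombinase in hepatocytes. HLKO mice were Alb-Cre+ with Hif1afl/fl, and BLKO mice were Alb-Cre+ with Bmal1fl/fl, so every group carried the Cre and no group was without it. The mice had food ad libitum and 12 h of light per day for 2 weeks, and the lights stayed off on the day of the experiment. They breathed 21% or 6% oxygen for 4 h, starting at circadian time 4 (CT4) or 16 (CT16) and ending at CT8 or CT20. The 3 genotypes, 2 times and 2 oxygen levels gave 12 groups of 3 libraries each, named by the letters A, B and C, 36 in all. The 3 samples of the double knockout, BHLKO, are not analysed here. Cells in which the Cre is not active keep the floxed genes. In whole liver, fewer cells of a type and less RNA per cell cannot be told apart.

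GDF15 is a distant member of the TGF-beta family that acts on the hindbrain through the receptor GFRAL and its partner RET and lowers food intake. FGF21 is a fasting and stress hormone that needs the co-receptor beta-Klotho (Klb) beside an FGF receptor. Inhbe encodes the subunit of activin E, a hepatocyte product that acts on fat tissue through the activin receptor ALK7, encoded by Acvr1c. All 3 are known targets of the integrated stress response, in which phosphorylation of eIF2 raises translation of the factor ATF4. FGF21 is also known as a target of the fasting receptor PPARA and of the sugar-sensing factor ChREBP, and GDF15 as a target of p53.

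Gdf15 lies on chromosome 8 from 70629393 to 70632456, Fgf21 on chromosome 7 from 45613886 to 45615490 and Inhbe on chromosome 10 from 127348857 to 127354411, all on the minus strand of GRCm38 (mm10). Inhbe lies within the span of Gm47200, an antisense gene on the plus strand that has no row of its own. The labels do not give the strand of the counting, so reads of Inhbe and Gm47200 cannot be told apart. The sequence before each start site was searched on both strands for TGATGNAA, the composite site that ATF4 and C/EBP factors bind in stress response genes. It is shown because it is the known entry point of the integrated stress response into this family. Fgf21 and Inhbe each held 1 match, read here on the gene's own strand as the reverse complement TTGCATCA, in capitals below with 11 bases on either side. The sequences are RefSeq's for GRCm38.p6, written 5′ to 3′ on the minus strand.
Fgf21, chr7:45615611-45615640: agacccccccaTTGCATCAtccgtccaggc
Inhbe, chr10:127352011-127352040: catcctctttcTTGCATCAtgcatgtccac
The match covered bases -139 to -132 before the Fgf21 start and -181 to -174 before the RefSeq start of Inhbe. The Inhbe stretch lies before the start in the RefSeq table but within an exon of the GENCODE model. TGATGNAA was present in 3.45% of 32851 promoter windows of 250 bases, and such a match is a description of the letters and not of a bound site.

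The Fgf21 window as a whole also held CACGTG, the E-box letters of clock factors, at -50 to -45, and TATAAA at -28 to -23. E-box letters were present in 6.02% and TATAAA in 12.4% of all windows. The hypoxia response core ACGTG or GCGTG occurred 3 times in the Fgf21 window, 2 of them inside the E-box letters, and was present in 38.6% of all windows; the Inhbe window held it once, at -165 to -161. Of the Gdf15 windows, that before the outer of 2 annotated starts held none of the 4 motifs, and the window before the inner start held CACGTG at -83 to -78, with the hypoxia response core on both strands inside those letters. The outer Gdf15 window and the Fgf21 window are printed in full, with the TGATGNAA match again in capitals. The inner Gdf15 window, which held CACGTG as the Fgf21 window did, is not printed. Whether these letters bear on the levels below was not tested.
Gdf15, chr8:70632457-70632706: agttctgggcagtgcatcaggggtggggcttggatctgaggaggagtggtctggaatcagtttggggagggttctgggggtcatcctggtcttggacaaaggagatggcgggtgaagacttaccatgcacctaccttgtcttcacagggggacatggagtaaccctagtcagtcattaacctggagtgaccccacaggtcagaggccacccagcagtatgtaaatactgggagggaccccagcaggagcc
Fgf21, chr7:45615491-45615740: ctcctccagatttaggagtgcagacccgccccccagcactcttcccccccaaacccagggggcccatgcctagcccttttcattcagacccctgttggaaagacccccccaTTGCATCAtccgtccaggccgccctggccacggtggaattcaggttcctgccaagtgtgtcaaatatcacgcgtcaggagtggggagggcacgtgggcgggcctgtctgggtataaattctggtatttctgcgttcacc

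Library totals ran from 1717589 to 5196957 counts. Levels are given as CPM, the usual depth-normalized count with library totals scaled by TMM, and differences as log2 fold changes ± SE from edgeR, with adjusted p-values over 9483 tested genes. A gene is called when the adjusted p is under 0.05. Where libraries of groups are said not to overlap, this describes the gene named. The share of all genes without overlap was not counted. Libraries of one group were never as close as counting error alone, with a chi-square per degree of freedom of 3.533 to 28.079 between pairs. By this measure Alb CT4 21% A and Alb CT16 6% A stood furthest apart from the other 2 libraries of their groups. Alb CT4 6% A (13.2 and 17.2, against 8.65 between B and C) did so less. BLKO CT16 21% A (12.7 and 9.83, against 5.94) was a like case. Counts of Hif1a ran from 4 to 74 in Alb and from 0 to 46 in HLKO. Hif1a was called in 1 of 4 comparisons of HLKO with Alb (CT16 6%, -1.78 ± 0.52, adjusted p = 0.0248), with 2 at an unadjusted p under 0.05. Its uncalled values were -0.61 ± 0.45 at CT4 21%, -0.03 ± 0.47 at CT16 21% and 0.94 ± 0.465 at CT4 6%. Arntl, the symbol of Bmal1 in the table, ran from 8 to 109 counts in Alb and from 13 to 65 counts in BLKO and was called by edgeR and by DESeq2 in 0 of 4, with 1 at an unadjusted p under 0.05. The sources used here do not say which exons the Cre removes, so counts over a whole gene do not check the deletions, and the groups are named as labelled.

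Gdf15 was the member with the highest level, at a mean of 207.7 CPM over all libraries, above 92.4% of tested genes. Fgf21 was at 7.87 CPM, above 32.3% of tested genes, and Inhbe was at 18.5 CPM, above 54.5%. Counts of Fgf21 were as low as 2 and no higher than 89. Its dispersion, the edgeR measure of spread between libraries beyond counting error, was 0.238, against 0.0725 for Gdf15 and 0.0601 for Inhbe. Differences of Fgf21 carry the widest errors of the 3. Per kilobase of exon, group means at 6% oxygen ran from 77.2 to 519 CPM per kb for Gdf15 and from 2.19 to 17.2 CPM per kb for Fgf21. For Inhbe they ran from 0.516 to 2.02 CPM per kb on the GENCODE exon length of 5.319 kb, and from 1.12 to 4.39 on the 2.447 kb that RefSeq gives the gene. Under 6% oxygen Gdf15 was thus the most abundant of the 3 per length in every group. At 21% oxygen the group means were 8.05 to 19.7 CPM per kb for Gdf15, 2.88 to 15.8 for Fgf21 and 3.30 to 9.32 for Inhbe with the GENCODE length, and the ranges overlapped. With the RefSeq length, which was applied to Inhbe alone, Inhbe was at 7.18 to 20.3 CPM per kb at 21% oxygen. In Alb at CT4 it was then above Gdf15 on its GENCODE length (14.5 against 9.34). The order of Inhbe and Gdf15 at 21% oxygen thus depends on the length taken for Inhbe.

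**Figure D1:**
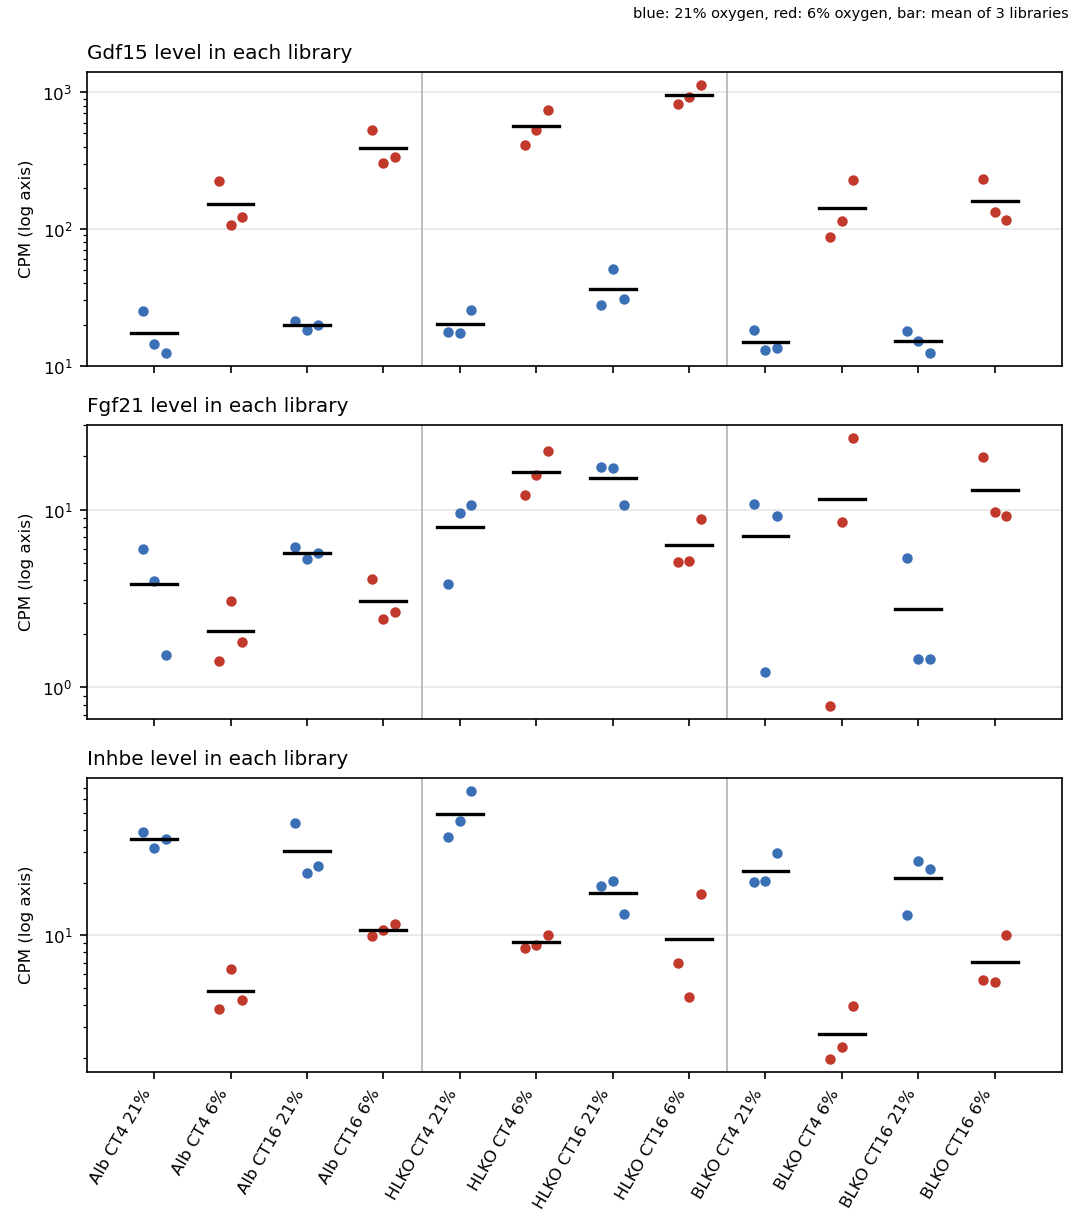
Level of Gdf15, Fgf21 and Inhbe in each of the 36 libraries (points, CPM on a log axis) with the mean of the 3 libraries of a group (bar), blue for 21% and red for 6% oxygen. The 18 Gdf15 points at 6% oxygen, 86.9 to 1130 CPM, all lie above the 18 points at 21% oxygen, 12.4 to 50.9 CPM, and the Inhbe points lie mostly the other way round.

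Gdf15 rose under 6% oxygen in every genotype and at both times, by 8.78-fold to 27.6-fold, and was among the 19 genes with the smallest p in each of the 6 comparisons. In Alb at CT4 the libraries A, B and C were at 25.1, 14.3 and 12.5 CPM under 21% oxygen and at 224, 107 and 123 CPM under 6% oxygen. In Alb at CT16 they were at 21.3, 18.3 and 19.8 CPM and rose to 530, 302 and 339 CPM. The A library was the highest of its group in all 4 Alb groups, and no 6% library overlapped a 21% library. The difference was 3.13 ± 0.36 at CT4 (adjusted p = 2.12e-07) and 4.30 ± 0.36 at CT16 (adjusted p = 3.66e-10).

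In HLKO at CT4, Gdf15 was at 17.7, 17.4 and 25.4 CPM under 21% oxygen and at 414, 532 and 741 CPM under 6% oxygen. In HLKO at CT16 it was at 27.8, 50.9 and 30.9 CPM and reached 825, 926 and 1130 CPM, the highest levels of the series. The HLKO groups under 6% oxygen thus stood at the top of the order of the 12 groups, and the differences were 4.79 ± 0.37 at CT4 (adjusted p = 4.72e-11) and 4.70 ± 0.35 at CT16 (adjusted p = 4.55e-11). In BLKO at CT4, Gdf15 was at 18.2, 13.1 and 13.4 CPM under 21% oxygen and at 86.9, 115 and 227 CPM under 6% oxygen. In BLKO at CT16 it was at 18.0, 15.1 and 12.4 CPM and rose to 233, 132 and 117 CPM. These were 2 of the 3 lowest group means under 6% oxygen, with differences of 3.28 ± 0.37 at CT4 (adjusted p = 7.75e-07) and 3.39 ± 0.35 at CT16 (adjusted p = 3.84e-08). The mean of the 6 differences was 3.93 ± 0.15 (adjusted p = 2.63e-20), a 15.3-fold rise, and Gdf15 stayed called when any 1 library was left out.

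Inhbe fell under 6% oxygen in 5 of the 6 comparisons. In Alb at CT4 it was at 39.2, 31.7 and 35.7 CPM under 21% oxygen and at 3.77, 6.46 and 4.25 CPM under 6% oxygen. In Alb at CT16 it was at 44.0, 22.8 and 24.8 CPM and at 9.96, 10.7 and 11.6 CPM. The groups did not overlap at either time, and Inhbe fell by 2.88 ± 0.37 at CT4 (adjusted p = 1.32e-06) and changed by -1.505 ± 0.32 at CT16 (adjusted p = 0.00113). In HLKO at CT4 it was at 36.4, 45.3 and 67.0 CPM under 21% oxygen and at 8.53, 8.86 and 10.01 CPM under 6% oxygen, and fell by 2.46 ± 0.31 (adjusted p = 8.72e-07). In BLKO at CT4 it was at 20.1, 20.4 and 29.5 CPM and at 1.97, 2.31 and 3.96 CPM, the lowest levels of Inhbe in the series, from 5 to 13 counts. It fell there by 3.05 ± 0.43 (adjusted p = 2.22e-05), 8.27-fold. In BLKO at CT16 it was at 13.1, 26.6 and 24.0 CPM and at 5.54, 5.45 and 10.1 CPM, without overlap, and fell by 1.61 ± 0.34 (adjusted p = 0.00176).

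The comparison in which Inhbe was not called was HLKO at CT16. It was at 19.1, 20.4 and 13.2 CPM under 21% oxygen and at 6.93, 4.44 and 17.3 CPM under 6% oxygen. HLKO CT16 6% C reached into the range of the 21% libraries, and the difference was -0.89 ± 0.37 (adjusted p = 0.124). Without that library the value was -1.71 (adjusted p = 0.00953), and over all alternatives run the adjusted p ranged from 0.00953 to 0.484. The mean of the 6 differences of Inhbe was -2.06 ± 0.15 (adjusted p = 2.87e-13), lower than that of all but 0.169% of tested genes.

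Fgf21 showed no common direction under 6% oxygen, and in the fit to all 36 libraries was called in BLKO at CT16 and in no other of the 6 comparisons. There it was at 5.34, 1.45 and 1.44 CPM under 21% oxygen and at 19.7, 9.64 and 9.16 CPM under 6% oxygen. The groups did not overlap, and Fgf21 rose by 2.08 ± 0.59 (adjusted p = 0.0207), 4.24-fold. The call was lost without BLKO CT16 21% B (1.79, adjusted p = 0.0903), without BLKO CT16 21% C (1.81, adjusted p = 0.0917) and without BLKO CT16 6% A (1.63, adjusted p = 0.151), and without BLKO CT16 21% A the value was 3.12. Over all alternatives run the adjusted p ranged from 0.0101 to 0.151.

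In Alb, Fgf21 was at 6.00, 3.96 and 1.52 CPM under 21% and at 1.41, 3.04 and 1.79 CPM under 6% oxygen at CT4 (-0.85 ± 0.85, adjusted p = 0.593). The CT16 values in Alb were 6.18, 5.24 and 5.70 CPM and 4.06, 2.41 and 2.67 CPM (-0.84 ± 0.69, adjusted p = 0.465). The CT16 libraries did not overlap, but the difference, at 7 to 25 counts per library, was not called. In HLKO, Fgf21 was at 3.83, 9.51 and 10.6 CPM under 21% and at 12.1, 15.7 and 21.2 CPM under 6% oxygen at CT4 (0.94 ± 0.54, adjusted p = 0.247). The CT16 values in HLKO were 17.4, 17.1 and 10.7 CPM and 5.04, 5.12 and 8.84 CPM (-1.23 ± 0.60, adjusted p = 0.198), where a fit on these groups alone called a fall (-1.22, adjusted p = 0.0454). All 6% libraries of HLKO were above the 21% libraries at CT4 and below them at CT16. By adjusted p, 14.4% and 9.74% of all genes were called there, which is not a share of genes without overlap. In BLKO at CT4 the libraries were widely spread, at 10.7, 1.23 and 9.25 CPM under 21% and at 0.787, 8.46 and 25.3 CPM under 6% oxygen (0.76 ± 0.58, adjusted p = 0.589). The mean of the 6 differences of Fgf21 was 0.14 ± 0.27 (adjusted p = 0.729).

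Against all tested genes, 2 of the 3 members were called in Alb at CT4, where 9.16% of the genes were called, in Alb at CT16 (13.5%), in HLKO at CT4 (14.4%) and in BLKO at CT4 (4.63%). The count was 1 of 3 in HLKO at CT16, against 9.74% of all genes, and 3 of 3 in BLKO at CT16, against 9.4%. For the mean of the 6 differences 2 of 3 were called, against 36% of all genes.

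**Figure D2:**
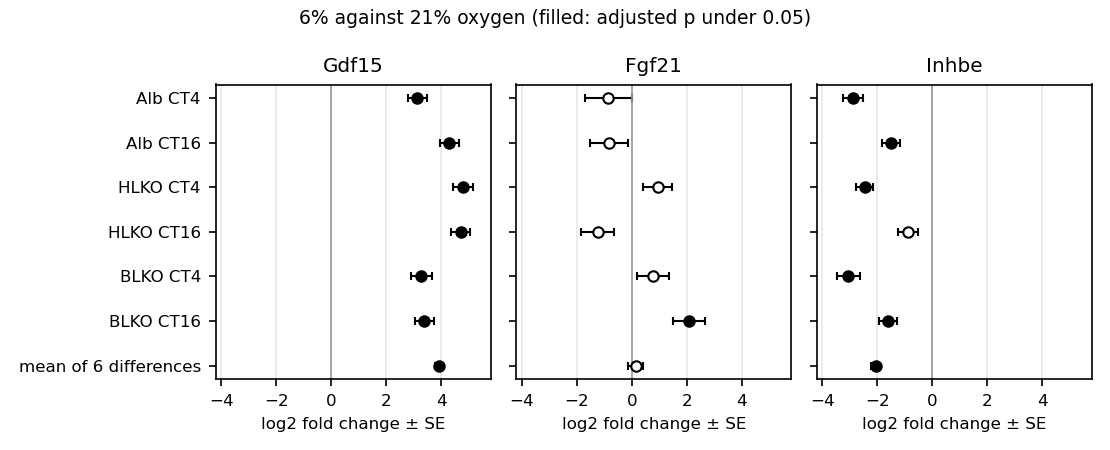
Log2 fold change of each member under 6% against 21% oxygen (points, bars ± SE) in the 6 combinations of genotype and time and as the mean of the 6 differences; filled points have an adjusted p under 0.05. Gdf15 lies between 3.13 and 4.79, Inhbe between -3.05 and -0.89, and Fgf21 on both sides of 0.

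Whether the response to 6% oxygen depended on time was tested as the difference at CT16 minus that at CT4. For Inhbe this value was positive in each genotype, a smaller fall at CT16 than at CT4. It was 1.37 ± 0.50 in Alb (adjusted p = 0.329), 1.58 ± 0.49 in HLKO (adjusted p = 0.0415) and 1.44 ± 0.58 in BLKO (adjusted p = 0.276). Only the HLKO value was called, 1 of 3 members against 8.64% of all genes, and it fell to 0.76 (adjusted p = 0.438) without HLKO CT16 6% C. The call was also lost without any 1 of 7 other libraries of these groups, with adjusted p from 0.0504 to 0.11: HLKO CT4 21% C, HLKO CT4 6% A, B and C, and HLKO CT16 21% A, B and C. Under the replicate block it was 1.49 (adjusted p = 0.0504), and over all alternatives the adjusted p ranged from 0.00657 to 0.438.

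For Gdf15 the dependence on time was 1.16 ± 0.49 in Alb (adjusted p = 0.44), -0.09 ± 0.47 in HLKO (adjusted p = 0.934) and 0.11 ± 0.50 in BLKO (adjusted p = 0.973). For Fgf21 it was 0.00 ± 1.11 in Alb (adjusted p = 1), -2.17 ± 0.80 in HLKO (adjusted p = 0.0856) and 1.33 ± 0.85 in BLKO (adjusted p = 0.59). Neither gene was called in the fit to all 36 libraries or by DESeq2, while a fit on the HLKO groups alone called Fgf21 (-2.15, adjusted p = 0.0151). In Alb edgeR and DESeq2 called 0 of 3 members, with 2 at an unadjusted p under 0.05, against 0.232% of all genes, and in BLKO both called 0 of 3, with 1 at an unadjusted p under 0.05, against 0.833%.

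Whether the response depended on genotype was tested against Alb at the same time. For Gdf15 in HLKO at CT4 the value was 1.65 ± 0.49 (adjusted p = 0.0737), a fold rise 3.15 times that in Alb. It was called by DESeq2 (1.66, adjusted p = 0.0494) and without Alb CT4 6% A, the highest Alb library of its group (2.04, adjusted p = 0.0287). The adjusted p over all alternatives ranged from 0.0287 to 0.181. Thus edgeR called 0 of 3 members in HLKO at CT4, with 1 at an unadjusted p under 0.05 and 1 called by DESeq2, against 1.58% of all genes. At CT16 Gdf15 was at 0.41 ± 0.47 (adjusted p = 0.833), and both tools called 0 of 3, with 0 at an unadjusted p under 0.05, against 0.875%.

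In BLKO against Alb, the value of Gdf15 was 0.15 ± 0.51 at CT4 (adjusted p = 0.963) and -0.91 ± 0.48 at CT16 (adjusted p = 0.741). Fgf21 in BLKO at CT16 had a value of 2.93 ± 0.91, higher than that of 99.97% of tested genes, and was not called (adjusted p = 0.304). At CT4 both tools called 0 of 3 members, with 0 at an unadjusted p under 0.05, against 0.19% of all genes, and at CT16 0 of 3, with 1 at an unadjusted p under 0.05, against 0.116%. The call of Fgf21 in BLKO but not in Alb at CT16 is therefore not a called difference between the genotypes.

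Levels under 6% oxygen differed between genotypes for Gdf15 and Fgf21. Gdf15 was higher in HLKO than in Alb at both times, by 1.90 ± 0.31 at CT4 (adjusted p = 0.000247) and by 1.30 ± 0.30 at CT16 (adjusted p = 0.0063), and no HLKO library overlapped an Alb library. The group means at CT4 were 562.5 ± 166 CPM in HLKO and 152 ± 63.6 CPM in Alb (SD, n = 3), and at CT16 they were 961 ± 155 and 390.1 ± 123 CPM. In BLKO at CT16 Gdf15 was at 161 ± 62.9 CPM and lower than in Alb by 1.28 ± 0.30 on the log2 scale (-1.28, adjusted p = 0.00433), again without overlap. At CT4 BLKO, at 143 ± 74.1 CPM, differed from Alb by less than the spread (-0.07 ± 0.31, adjusted p = 0.953). These calls of Gdf15 held when any 1 library was left out.

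Fgf21 under 6% oxygen was higher in HLKO than in Alb at CT4, by 2.92 ± 0.68 (adjusted p = 0.0093), with no overlap between 12.1 to 21.2 CPM and 1.41 to 3.04 CPM. Without Alb CT4 6% C it was 2.77 (adjusted p = 0.0822), and the adjusted p over all alternatives ranged from 0.00169 to 0.0822. At CT16 the HLKO value was 1.002 ± 0.72 (adjusted p = 0.391). In BLKO, Fgf21 was higher than in Alb by 2.52 ± 0.71 at CT4 (adjusted p = 0.0298), but the libraries overlapped, and without BLKO CT4 6% C, at 25.3 CPM, the value was 1.15 (adjusted p = 0.552). That call was also lost without Alb CT4 6% A (2.39, adjusted p = 0.0886), B (2.84, adjusted p = 0.0588) or C (2.37, adjusted p = 0.126), and over all alternatives the adjusted p ranged from 0.00265 to 0.552. In BLKO at CT16 the difference was 2.02 ± 0.60 (adjusted p = 0.0259), without overlap. It was lost without Alb CT16 6% A (2.32, adjusted p = 0.052), B (1.89, adjusted p = 0.0846) or C (1.92, adjusted p = 0.093) and without BLKO CT16 6% A (1.56, adjusted p = 0.186), with a range over all alternatives from 0.00606 to 0.186.

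Inhbe under 6% oxygen was called in none of the 4 genotype comparisons by edgeR or DESeq2, and 1 had an unadjusted p under 0.05. That one was HLKO at CT4, whose libraries all lay above those of Alb (0.91 ± 0.42, adjusted p = 0.265). In HLKO, 2 of 3 members were called at CT4 against 3.5% of all genes, and 1 of 3 at CT16 against 9.88%. In BLKO, 1 of 3 was called at CT4 against 5% of all genes, and 2 of 3 at CT16 against 9.45%.

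**Figure D3:**
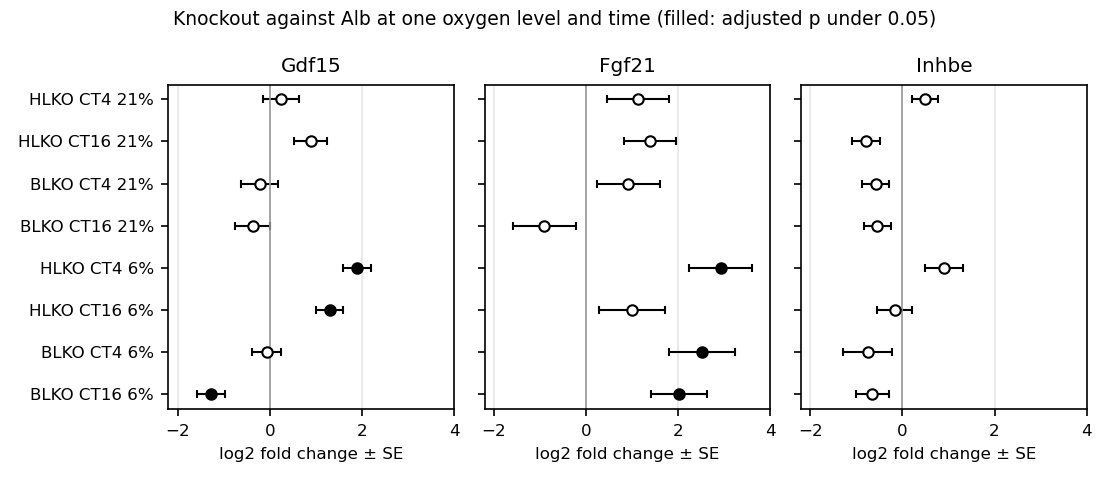
Log2 fold change of each member in HLKO or BLKO against Alb (points, bars ± SE) at each time and oxygen level; filled points have an adjusted p under 0.05. None of the 12 points at 21% oxygen is filled, and at 6% oxygen 3 of the 4 Gdf15 points and 3 of the 4 Fgf21 points are.

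At 21% oxygen no member was called between genotypes. In HLKO at CT4 edgeR and DESeq2 called 0 of 3, with 0 at an unadjusted p under 0.05, against 9.71% of all genes. In HLKO at CT16 both called 0 of 3, with all 3 at an unadjusted p under 0.05, against 3.56%. Gdf15 (0.89 ± 0.36, adjusted p = 0.177) and Fgf21 (1.39 ± 0.57, adjusted p = 0.184) were higher there and Inhbe was lower (-0.78 ± 0.31, adjusted p = 0.159) in all HLKO libraries than in all Alb libraries. How many of all genes lay apart in this way was not counted. A fit on these 2 groups alone called Gdf15 (0.88, adjusted p = 0.0345) and Fgf21 (1.38, adjusted p = 0.00885), and over all alternatives the 2 genes' adjusted p reached 0.499 and 0.345. In BLKO both tools called 0 of 3, with 0 at an unadjusted p under 0.05, at CT4 (7.44% of all genes) and at CT16 (5.38%).

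Between the times, Inhbe at 21% oxygen was lower at CT16 than at CT4 in HLKO, at 17.6 ± 3.82 CPM against 49.6 ± 15.7 CPM (-1.501 ± 0.30, adjusted p = 0.00081), without overlap, 1 of 3 members against 11.9% of all genes. In Alb it was at 30.6 ± 11.7 CPM at CT16 and 35.5 ± 3.75 CPM at CT4 (-0.22 ± 0.28, adjusted p = 0.867). The difference between these 2 time differences, -1.28 ± 0.41, was not called (adjusted p = 0.158). For that difference in HLKO both tools called 0 of 3 members, with 1 at an unadjusted p under 0.05, against 0.939% of all genes, and in BLKO 0 of 3, with 0 at an unadjusted p under 0.05, against 0.749%. The times at 21% oxygen gave 0 of 3 by both tools, with 0 at an unadjusted p under 0.05, in Alb (1.27% of all genes) and in BLKO (2.19%).

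Under 6% oxygen Gdf15 was higher at CT16 than at CT4 in Alb, by 1.37 ± 0.31 (adjusted p = 0.00603), 1 of 3 members against 4.41% of all genes. The libraries did not overlap, and the call was lost without Alb CT4 6% B (1.19, adjusted p = 0.0628) or without Alb CT16 6% A (1.10, adjusted p = 0.057), one of the libraries that stood apart. A fit on these 2 groups alone gave an adjusted p of 0.0521, and over all alternatives it ranged from 0.00152 to 0.0628. In Alb 2 of 3 members had an unadjusted p under 0.05 and DESeq2 called 2. The other was Inhbe, higher at CT16 without overlap (1.15 ± 0.41, adjusted p = 0.107, and 0.0461 by DESeq2). Inhbe was also higher without overlap in BLKO (1.25 ± 0.49, adjusted p = 0.162), and in HLKO its value was 0.08 ± 0.39 (adjusted p = 0.933). In HLKO all 3 Gdf15 libraries were higher at CT16 (0.77 ± 0.30, adjusted p = 0.0892). Both tools called 0 of 3 members in HLKO, with 2 at an unadjusted p under 0.05, against 9.81% of all genes. In BLKO both called 0 of 3, with 1 at an unadjusted p under 0.05, against 3.35%.

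In the order of the 12 group means of Gdf15, HLKO CT16 6% was first without overlap with HLKO CT4 6%. That group overlapped Alb CT16 6%, and Alb CT16 6% was separate from BLKO CT16 6%. BLKO CT16 6%, Alb CT4 6% and BLKO CT4 6% overlapped one another in turn and were separate from the highest 21% group, HLKO CT16 21%. For Fgf21 every group overlapped the next one in the order, from HLKO CT4 6% at 16.3 ± 4.62 CPM to Alb CT4 6% at 2.08 ± 0.85 CPM. For Inhbe the one gap between neighbours separated HLKO CT16 21%, the lowest 21% group by mean, from Alb CT16 6%, the highest 6% group by mean at 10.7 ± 0.80 CPM. The oxygen levels still overlapped in single libraries. HLKO CT16 6% C, at 17.3 CPM, lay above HLKO CT16 21% C (13.2 CPM) and BLKO CT16 21% A (13.1 CPM).

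The genes with the pattern most like each member were taken by Pearson's r between mean log2 CPM over the 12 groups, a description in which all genes share the libraries. For Gdf15 these were Gadd45b (r = 0.98), a stress sensor, the RNA host gene Snhg3 (r = 0.97), the stress transcription factor Atf3 (r = 0.968), the linker histone H1f4 (r = 0.958) and the AP-1 subunit Jun (r = 0.956). The group means of Atf3 ran from 1.89 to 2.68 CPM under 21% and from 10.7 to 130.9 CPM under 6% oxygen, and those of Gadd45b from 2.56 to 9.69 and from 17.8 to 115 CPM. All 5 had higher means in each 6% group than in any 21% group. Spearman's rho for these 5 was 0.888 to 0.937.

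For Inhbe the 5 genes were LTO1 and Zfp970 (r = 0.937 each), Trim47 (r = 0.935), Mavs (r = 0.929), which encodes the mitochondrial antiviral signalling adaptor, and Exosc6 (r = 0.927), an RNA exosome subunit. LTO1 had group means of 10.4 to 16.9 CPM under 21% and of 3.65 to 6.13 CPM under 6% oxygen. For Fgf21 the closest were Ppp1r12c (r = 0.816), Nfxl1 (r = 0.809), Bloc1s6 (r = 0.797), Ercc8 (r = 0.792) and Pllp (r = 0.766), all less close than those of the other members. Among the members themselves r was -0.716 between Gdf15 and Inhbe, 0.211 between Gdf15 and Fgf21 and -0.046 between Fgf21 and Inhbe.

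**Figure D4:**
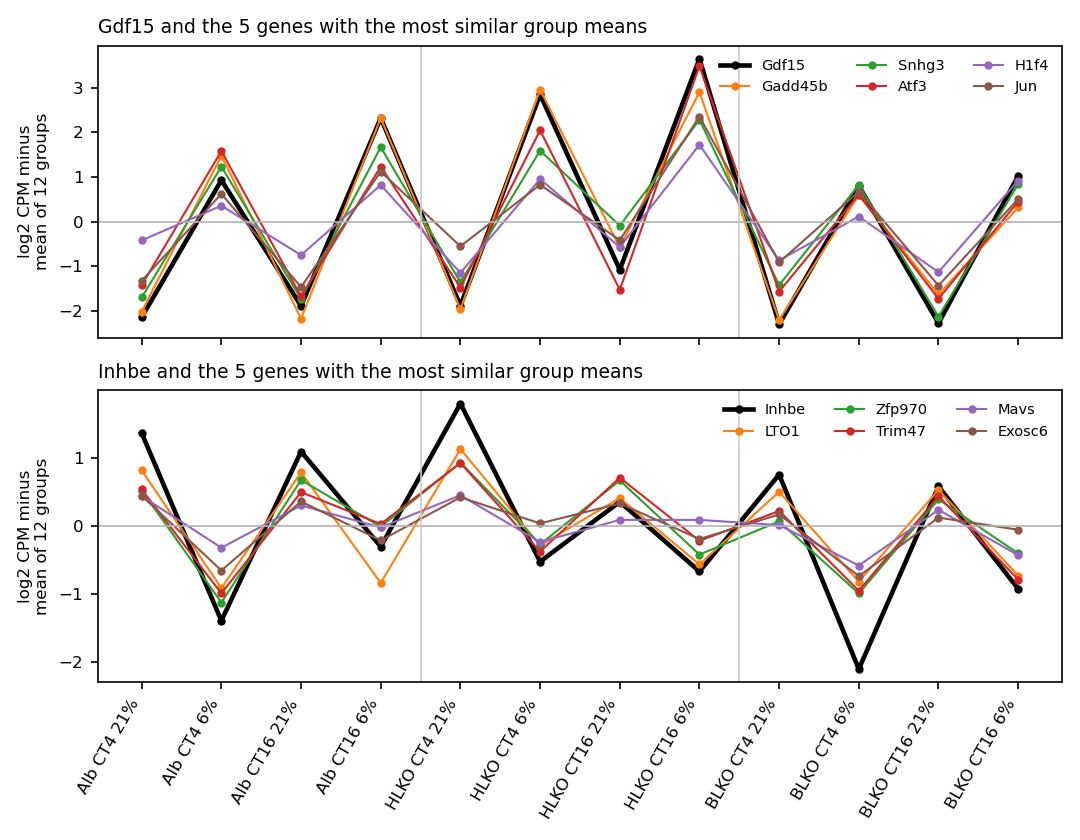
Mean log2 CPM of each of the 12 groups minus the gene's mean over the groups, for Gdf15 (black, upper panel) and Inhbe (black, lower panel) with the 5 genes of highest Pearson's r. HLKO CT16 6% is the highest group of every upper line except Gadd45b, which peaks in HLKO CT4 6%, and the lowest group of every lower line is Alb CT4 6% or BLKO CT4 6%.

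Of 35 listed genes of the integrated stress response and targets of ATF4 or CHOP, 25 could be tested. Counts follow in the order Alb CT4, Alb CT16, HLKO CT4, HLKO CT16, BLKO CT4 and BLKO CT16. Under 6% oxygen 7, 9, 8, 4, 4 and 10 of the list rose and 0, 1, 1, 1, 0 and 0 fell. Ddit4, which rose in 5 of 6, is also in the list of HIF targets below. Of all tested genes 9.16%, 13.5%, 14.4%, 9.74%, 4.63% and 9.4% were called in either direction. The list's median log2 fold change was 0.27 to 0.52, against -0.02 to 0.03 over all tested genes. Ppp1r15a, which encodes the phosphatase subunit that reverses eIF2 phosphorylation, rose in all 6 by 0.98 to 1.34. Atf4 itself rose in 4 of 6 with values of 0.23 to 0.82. Trib3, a pseudokinase target of ATF4 and CHOP, and Cebpb, a C/EBP factor, rose in 5 of 6 each. Atf5, a related factor, fell in Alb at CT16 (-0.92) and in HLKO at CT16 (-0.88). Chosen after their values were seen, Ddit3, which encodes CHOP, rose in 1 of 6 and Asns, the asparagine synthetase that ATF4 drives, was called in none by edgeR or DESeq2, with 1 at an unadjusted p under 0.05. Without Alb CT4 21% A the number that rose in Alb at CT4 was again 7 while the list's median went from 0.29 to 0.52, and without Alb CT16 6% A it was 10 in Alb at CT16.

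The ATF6 and XBP1 arms of the unfolded protein response, 18 tested genes, had 1 or 2 members that rose in each comparison and 0 to 6 that fell. For this list and those below, the share of all genes called in either direction was 9.16%, 13.5%, 14.4%, 9.74%, 4.63% and 9.4% in the same order of groups, and counts of 1 or 2 are near those shares. Herpud1, a component of endoplasmic reticulum protein degradation that ATF4 also drives, rose in all 6 by 0.50 to 1.53. The 6 that fell were in HLKO at CT4, where Xbp1 changed by -1.42 ± 0.21 (adjusted p = 1.24e-05). In HLKO at CT16, 0 fell and Xbp1 rose by 0.89 ± 0.22 (adjusted p = 0.00659). Gdf15 rose by 4.79 in HLKO at CT4 and by 4.70 at CT16, and a link with Xbp1 was not tested. Of 13 tested p53 targets, 3, 4, 6, 4, 2 and 4 rose in the same order of groups and 1 fell, in HLKO at CT16. Cdkn1a, the cell cycle inhibitor p21, rose in 4 of 6, by 1.34 in BLKO at CT16 up to 4.25 ± 0.20 in HLKO at CT4 (adjusted p = 2.59e-16), and was not called in HLKO at CT16 or in BLKO at CT4. Without Alb CT16 6% A, the number of unfolded protein response genes that fell in Alb at CT16 went from 3 to 1.

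Among 20 tested PPARA targets, 6 rose in HLKO at CT4 and 8 fell in HLKO at CT16. The counts that rose were 0, 2, 6, 0, 0 and 1 and those that fell 3, 5, 0, 8, 1 and 1. Ehhadh, a peroxisomal oxidation enzyme, rose by 0.93 ± 0.22 in HLKO at CT4 (adjusted p = 0.00367) and changed by -1.13 ± 0.22 at CT16 (adjusted p = 0.000748). Ppara itself fell in 4 of 6. In BLKO at CT16, where Fgf21 was called, 1 PPARA target rose, Pdk4 (2.35 ± 0.51, adjusted p = 0.00276), and 1 fell. Of 12 ChREBP targets, 2, 5, 3, 4, 3 and 4 rose and 1, 0, 2, 0, 0 and 1 fell. Txnip, an inhibitor of glucose uptake, rose in all 6 by 1.33 to 2.44, and Mlxipl, which encodes ChREBP, fell in 3 of 6. Without Alb CT4 21% A the number of ChREBP targets that rose in Alb at CT4 went from 2 to 1, and without Alb CT16 6% A that in Alb at CT16 went from 5 to 3.

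For the receptors and binding partners, 11 of 19 listed genes were tested, and Gfral, Ret and Acvr1c have no row. Klb, the FGF21 co-receptor, was at 5.31 to 26.8 CPM in single libraries, and none of its 6 values, 0.17 to 0.93, was called by edgeR or DESeq2, with 2 at an unadjusted p under 0.05. Its mean of the 6 differences was called (0.51 ± 0.12, adjusted p = 0.00084). Fgfr4, the main FGF receptor of hepatocytes, was called in none by edgeR or DESeq2, with 0 at an unadjusted p under 0.05 (-0.19 to 0.45). Fgfr3 fell in HLKO at CT4 (-0.79 ± 0.18, adjusted p = 0.00336) and rose there at CT16 (0.84 ± 0.21, adjusted p = 0.00738), and Fst, which encodes the activin-binding protein follistatin, rose in BLKO at CT4 (2.05 ± 0.51, adjusted p = 0.0122). Inhbc, the other activin subunit gene abundant in liver, was at 62.7 to 122 CPM in single libraries, and its 6 values lay between -0.20 and 0.25. It was called in none by edgeR or DESeq2, with 0 at an unadjusted p under 0.05. Inhba and Inhbb held 0 to 7 and 0 to 12 counts and were not tested.

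Of 22 other secreted factors, 3, 6, 5, 3, 2 and 1 rose and 1, 0, 1, 1, 1 and 1 fell. Igfbp1, a binding protein of insulin-like growth factors, rose in all 6 by 1.78 to 5.31. Like Inhbe, Angptl8, an inhibitor of lipoprotein lipase that feeding raises, was lower in HLKO at CT4 (-1.68 ± 0.48, adjusted p = 0.0164) and in BLKO at CT16 (-2.19 ± 0.48, adjusted p = 0.0031). In HLKO at CT16 it was called higher (2.73 ± 0.51, adjusted p = 0.000504), but the 6% libraries there were at 213 ± 234 CPM (SD, n = 3), a spread larger than their mean. Of 15 listed HIF targets 14 were tested, and 7, 7, 9, 3, 5 and 5 rose and 0, 0, 0, 1, 0 and 1 fell. This list shares Ddit4 with the integrated stress response list and Igfbp1 and Adm with the secreted factors. Angptl4 is in the PPARA list and among the secreted factors. Counts of these lists are therefore not separate from one another.

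**Figure D5:**
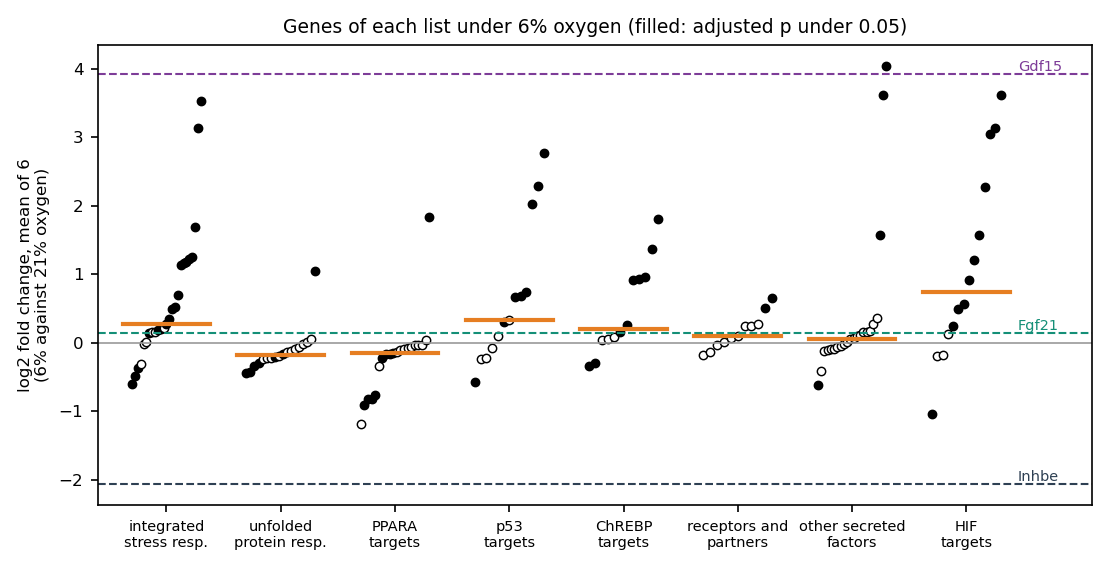
Mean of the 6 log2 fold changes under 6% against 21% oxygen for each tested gene of the 8 lists (points, filled at an adjusted p under 0.05; orange bar, list median), with dashed lines at the values of Gdf15 (3.93), Fgf21 (0.14) and Inhbe (-2.06). No gene of the lists lies as low as Inhbe.

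Summed levels of 10 hepatocyte markers were 78210 to 129700 CPM under 21% and 75040 to 118300 CPM under 6% oxygen. Of 10 tested Kupffer cell and macrophage markers, 7 rose in Alb at CT4 (median 1.14) and the sum went from a mean of 239.8 CPM, range 186 to 328, to 519 CPM, range 356 to 668. None of the 11 macrophage markers in the table was at 0 in all libraries, and Clec4f, Csf1r and C1qa were above 0 in each. Without Alb CT4 21% A, 2 rose (median 0.94), and without Alb CT16 6% A the number in Alb at CT16 went from 1 to 5. Clec4f, which marks Kupffer cells, rose by 1.06 ± 0.27 in Alb at CT4 (adjusted p = 0.00918). In HLKO at CT4, where Gdf15 rose 27.6-fold, 0 macrophage markers were called by edgeR or DESeq2, with 0 at an unadjusted p under 0.05, and their sum was 253.8 CPM under 21% and 266.6 CPM under 6% oxygen. In HLKO at CT16, where Gdf15 was highest, the sum was 259.9 CPM under 21% and 350.5 CPM under 6% oxygen (list median 0.42, none called by either tool or at an unadjusted p under 0.05). In Alb at CT16 it was 221.9 and 350.2 CPM (list median 0.64). In BLKO none was called by either tool or had an unadjusted p under 0.05 at either time and the sums were lower under 6% oxygen, at 219.9 against 232.5 CPM at CT4 and at 235.1 against 287.8 CPM at CT16. Of 10 endothelial markers 4 rose in Alb at CT4 and 1 in HLKO at CT4. The part of the macrophage and endothelial markers in the Gdf15 values was not tested.

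The remaining marker lists were sparse. Of 8 tested stellate markers 0 were called by edgeR or DESeq2 in the 6 comparisons, with 1 at an unadjusted p under 0.05 in Alb at CT4 and 1 in HLKO at CT16. Of 3 bile duct markers 1 rose, in HLKO at CT16, and the 1 tested red cell marker, Alas2, was called in none by either tool, with 1 at an unadjusted p under 0.05. S100a9, the 1 tested neutrophil marker, at 0 to 26 counts, rose in Alb at CT16, and no lymphocyte marker was tested. Of the acinar pancreas markers 3 have a row, and 1 of the 2 tested, Cela2a, rose in Alb at CT16. Cela2a was at 0 to 21 counts per library and at 0 in 3 libraries, so this rise lies near the floor of counting. Ctrb1 was at 0 counts in 29 of 36 libraries, and the summed level, almost all Cela1, had group means of 44.5 to 70.6 CPM in Alb, 85.7 to 121 CPM in HLKO and 202 to 243 CPM in BLKO.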

How the data were processed

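Total RNA of liver was sequenced in 36 libraries. The deposited raw columns hold counts of reads per gene, and the authors' normalized columns hold a signal that was checked to be each raw column times 1 constant; only counts were tested. Per the submitters' processing notes, HTSeq, STAR 2.4.2a, cutadapt and DESeq2 were used with mm10; strand and molecular identifiers are not given in the sources used here. The labels do not say whether libraries of a group came from separate animals, so p-values measure the spread between these libraries.

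Genes were kept by filterByExpr (count minimum 10; 9483 of 11873), and edgeR 4.0.16 (R 4.3.3) fitted quasi-likelihood models with TMM factors to all 36 libraries, 1 mean per group. The 30 comparisons share groups, and each was adjusted by Benjamini and Hochberg (two-sided). The fit was tested on simulated data. Letters were checked for pairing: same-letter correlations were -0.131 to 0.222, and 0 of 6 hypoxia comparisons had all 3 over 0.1, so they were not used as pairs.

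The members and gene lists were chosen with earlier results of these data known. Named list genes are the up to 4 called in a comparison with the highest mean CPM. Some genes this rule names are not reported here. Positions are from GENCODE M21 and promoters from RefSeq, matched by symbol for all 3 members. Alternatives were DESeq2 1.42.0, RLE scaling, no filter, the compared groups only, a replicate block, each library left out, 2 other scalings of levels and Spearman's rho. List counts without the 2 libraries that stood furthest apart were chosen after seeing the data. Figures used matplotlib 3.10.9 in Python 3.11.15.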

Additional observations from a re-analysis of the deposited data

Results flagged for a closer look

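The fall of Inhbe under 6% oxygen was smaller at CT16 than at CT4 in HLKO, by 1.58 ± 0.49 on the log2 scale (1.5762, adjusted p = 0.0415 in edgeR fitted to all 36 libraries, 3 in each of the 4 HLKO groups), which marks it as a difference between times by its own test. The CT4 fall was 2.46 and the CT16 fall 0.89. Group means were 49.6 and 9.13 CPM at CT4 and 17.6 and 9.54 CPM at CT16, so the 6% groups were close and the 21% groups were apart. Leaving out HLKO CT16 6% C, at 17.3 CPM beside 6.93 and 4.44 CPM, gave 0.76 (adjusted p = 0.438). A fit on the 4 HLKO groups alone gave 1.599 (adjusted p = 0.0681). The same contrast was 1.37 in Alb and 1.44 in BLKO, neither called, but the groups that lay apart were others. In Alb the means at CT4 and CT16 were 35.5 and 30.6 CPM under 21% and 4.83 and 10.7 CPM under 6% oxygen. In BLKO they were 23.35 and 21.2 CPM under 21% and 2.74 and 7.03 CPM under 6% oxygen. In both, the 21% libraries of the times overlapped and the 6% libraries did not, the reverse of HLKO.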

How the results depend on the processing

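RLE scaling and no filter on low counts left the direction and call of all 90 member results as they were. The libraries share only a letter across groups, and the replicate block ended 1 call, that of Inhbe for the hypoxia difference between times in HLKO (1.49), and changed no other. A fit on the compared groups only could not be made for the mean of 6 differences, which uses all groups. It ended the same Inhbe call (1.599) and that of Gdf15 between times in Alb at 6% (1.37). It added calls of Fgf21 under hypoxia in HLKO at CT16 (-1.22), of Fgf21 for hypoxia between times in HLKO (-2.15), of Gdf15 (0.88) and Fgf21 (1.38) in HLKO against Alb at CT16 21%, of Gdf15 between times in HLKO at 21% (0.86) and of Fgf21 between times in HLKO at 6% (-1.32). DESeq2 added Gdf15 in the hypoxia response of HLKO against Alb at CT4 (1.66) and Inhbe between times in Alb at 6% (1.17), and turned the sign of Fgf21 for hypoxia between times in Alb (-0.0019), a value near 0. The cause of these changes was not tested.

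With each library left out in turn, calls changed or ended within these ranges. For Fgf21 they were 1.63 to 3.12 for hypoxia in BLKO at CT16, 2.72 to 3.24 for HLKO minus Alb and 1.15 to 3.03 for BLKO minus Alb at CT4 6%, and 1.56 to 2.32 for BLKO minus Alb at CT16 6%. For Gdf15 they were 1.32 to 2.04 for hypoxia in HLKO minus Alb at CT4, 1.10 to 1.76 for CT16 minus CT4 in Alb at 6% and 0.59 to 1.03 for the same in HLKO. For Inhbe they were -1.71 to -0.46 for hypoxia in HLKO at CT16 and 0.76 to 2.01 for hypoxia between times in HLKO. Signs turned for 20 uncalled results. For Fgf21 these ranged from -0.43 to 0.40 for hypoxia between times in Alb, -0.18 to 0.66 for time at 21% in HLKO minus Alb, -0.41 to 1.47 between times in BLKO at 6%, -0.61 to 1.26 for hypoxia in BLKO at CT4 and -0.089 to 0.31 for the mean of 6 differences. For Gdf15 they ranged in BLKO minus Alb from -0.35 to 0.53 for hypoxia at CT4, -0.41 to 0.13 at CT4 21%, -0.58 to 0.32 at CT4 6% and -0.49 to 0.046 for time at 21%. Between times Gdf15 ranged from -0.27 to 0.25 for hypoxia in HLKO, -0.26 to 0.61 for hypoxia in BLKO, -0.096 to 0.21 in BLKO at 21% and -0.20 to 0.67 in BLKO at 6%. For Inhbe in BLKO minus Alb they ranged from -0.15 to 0.38 for time at 21%, -0.56 to 0.071 for hypoxia at CT4 and -0.45 to 0.088 for hypoxia at CT16. In HLKO minus Alb at CT16 Inhbe ranged from -0.98 to 0.27 at 6% and -0.20 to 1.05 for hypoxia, and between times from -0.74 to 0.51 in HLKO at 6% and -0.38 to 0.10 in BLKO at 21%.

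Counts of all genes called, which are the shares set beside the members, moved by over 1.5 times in some comparisons. Leaving out each library in turn moved 122 of 264 such counts. DESeq2 called 43 against 22 for hypoxia between times in Alb, 234 against 150 for hypoxia in HLKO minus Alb at CT4, 48 against 18 and 25 against 11 for hypoxia in BLKO minus Alb at CT4 and CT16, and 113 against 71 for time at 21% in BLKO minus Alb. The fit on the compared groups only, which has fewer samples, called 458 against 869 for hypoxia in Alb at CT4, 421 against 924 in HLKO at CT16, 2 against 22 between times in Alb, and 81 against 150, 28 against 83 and 5 against 18 for hypoxia in HLKO minus Alb at CT4 and CT16 and BLKO minus Alb at CT4. At 6% it called 195 against 332 and 73 against 937 for HLKO minus Alb at CT4 and CT16, 310 against 474 for BLKO minus Alb at CT4, and between times 123 against 418 in Alb and 300 against 930 in HLKO, with 69 against 120 in Alb at 21%. Fgf21, at 2 to 89 counts per library and with the highest dispersion of the members (0.238), is the one with the widest errors. The parts of depth and of spread between libraries in these errors were not tested.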
